A study of Mus musculus with 6 samples.

Results

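Lyn, Fgr, Fyn, Csk, Syk, Btk, Ptpn6, Ptpn11 and Inpp5d are 9 genes of the kinase and phosphatase layer that sits directly below immune receptors. They were followed in eosinophils from the mouse small intestine. The genes were taken by symbol, all 9 were found among the 23283 symbols of the deposited tables, and all 9 were abundant enough to be tested. The cells came from BALB/c mice, with no genetic change named, and spent 4 hours in culture. In 3 cultures they were left untreated and in 3 they received 10 ng/ml GM-CSF, a cytokine that supports the survival and activation of eosinophils, so all libraries, the controls included, are from cultured cells. The labels give neither the mice's age nor how the eosinophils were isolated or how pure they were. RNA was made into libraries with a stranded, poly(A)-selecting kit and sequenced. The labels do not say whether cultures of a group came from separate mice, so p-values describe only the spread between these cultures, which may be technical.

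Receptors of myeloid cells often carry or pair with short tyrosine motifs in their cytoplasmic tails. A Src-family kinase such as Lyn, Fgr or Fyn phosphorylates these motifs. On activating motifs (ITAMs) the kinase Syk docks and passes the signal on, together with Tec-family kinases such as Btk, while on inhibitory motifs (ITIMs) the phosphatases SHP-1 (Ptpn6), SHP-2 (Ptpn11) and SHIP-1 (Inpp5d) dock. Csk holds Src-family kinases in check by phosphorylating a tyrosine in their tail. SHP-2 differs from the other phosphatases in that it also promotes signalling by growth factor and cytokine receptors. GM-CSF receptors signal through JAK2 and STAT5, and Lyn is known to associate with their shared beta chain.

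Mapped sequence per library ranged from 0.82 to 1.32 gigabases, and between 9849 and 10132 genes per library reached 1 FPKM (fragments per kilobase of transcript, scaled to the library's mapped fragments, so that levels can be compared between genes). The 9 genes were covered by between 21.4 kilobases of aligned sequence for Fyn and 1460 kilobases for Ptpn6, so Fyn is the member with the least depth behind it. Of the markers of eosinophils, Ccr3 averaged 289 FPKM, Siglec5 (the symbol in the tables for Siglec-F) 170 FPKM and Emr1 368 FPKM in untreated libraries. The granule genes Epx and Prg2 were low, at 6.62 and 8.85 FPKM, and Prg3, Ear1, Ear2 and Ear6 stayed below a mean of 1 FPKM. Markers of other cells were present too. Their levels are given beside the genes they move with, and in bulk RNA fewer cells of a type and less RNA per cell cannot be told apart.

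Most of the 9 genes were well expressed in these eosinophils. In untreated cultures Ptpn6 was the highest at 498 ± 16.3 FPKM (SD, n = 3), followed by Csk at 219 ± 4.32, Syk at 162 ± 4.84, Fgr at 143 ± 6.76, Inpp5d at 123 ± 3.00, Lyn at 119 ± 5.07 and Btk at 101 ± 2.94. Ptpn11 at 17.2 ± 0.378 and Fyn at 11.9 ± 0.483 FPKM were far below, near the median of all genes tested, 11.0 FPKM. Inpp5d and Lyn could not be ordered, because their libraries overlapped. All other neighbours in this order were separated in all 3 untreated libraries, with the widest gap, 5.90-fold, between Btk and Ptpn11. With GM-CSF the order changed at 1 place: Btk, at 144 ± 10.8 FPKM (SD, n = 3), stood above Fgr (126 ± 6.62), Inpp5d (106 ± 1.69) and Lyn (97.9 ± 2.69). The other genes kept their order, and all neighbours were then separated.

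**Figure D1:**
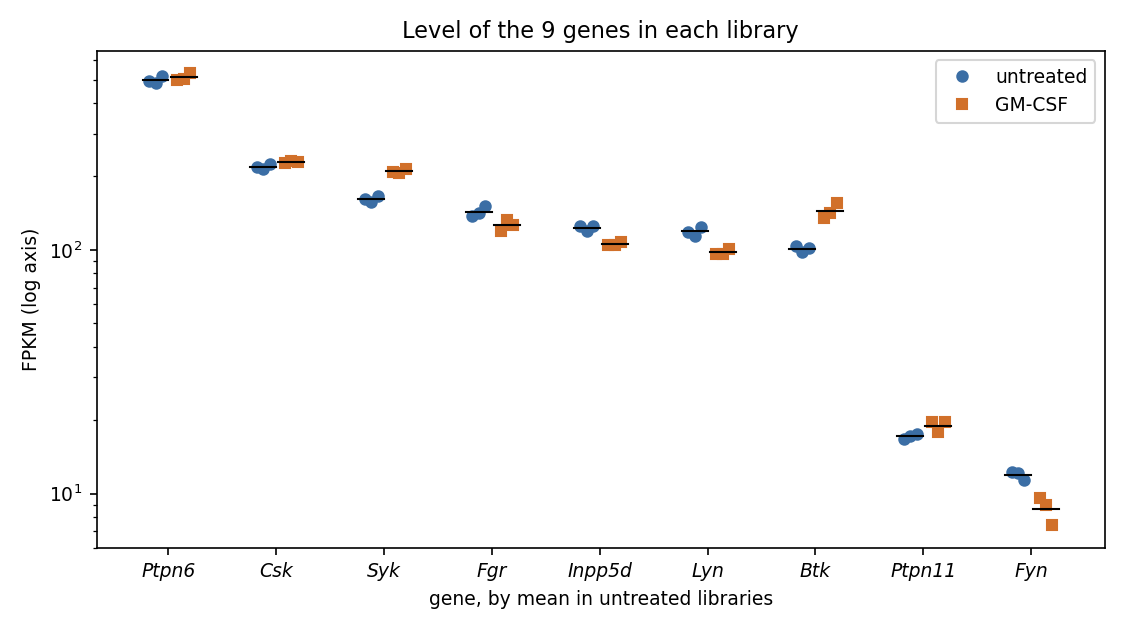
FPKM of each gene (log axis) in each of 3 untreated (circles) and 3 GM-CSF (squares) libraries, with black bars at the group means. Syk and Btk sit higher and Lyn, Fyn and Inpp5d lower with GM-CSF, while Ptpn6 overlaps between the groups.

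GM-CSF raised Syk and Btk and lowered Lyn, Fyn and Inpp5d, all by modest amounts. Csk, Fgr, Ptpn6 and Ptpn11 did not pass the test. The test was limma on log2(FPKM + 1) across the 10106 genes whose mean reached 1 FPKM, with Benjamini-Hochberg adjustment over all of them and a threshold of 0.05, and each log2 fold change below is on that scale. So 2 of the 9 genes rose, against a background of 7.68% of all genes tested, and 3 fell, against 14.2%. In all, 21.9% of genes tested were called in either direction. The median log2 fold change of the 9 genes was 0.03, against -0.05 for all genes. GM-CSF and untreated libraries did not overlap for 8 of the 9, where the same held for 39.2% of all genes tested.

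**Figure D2:**
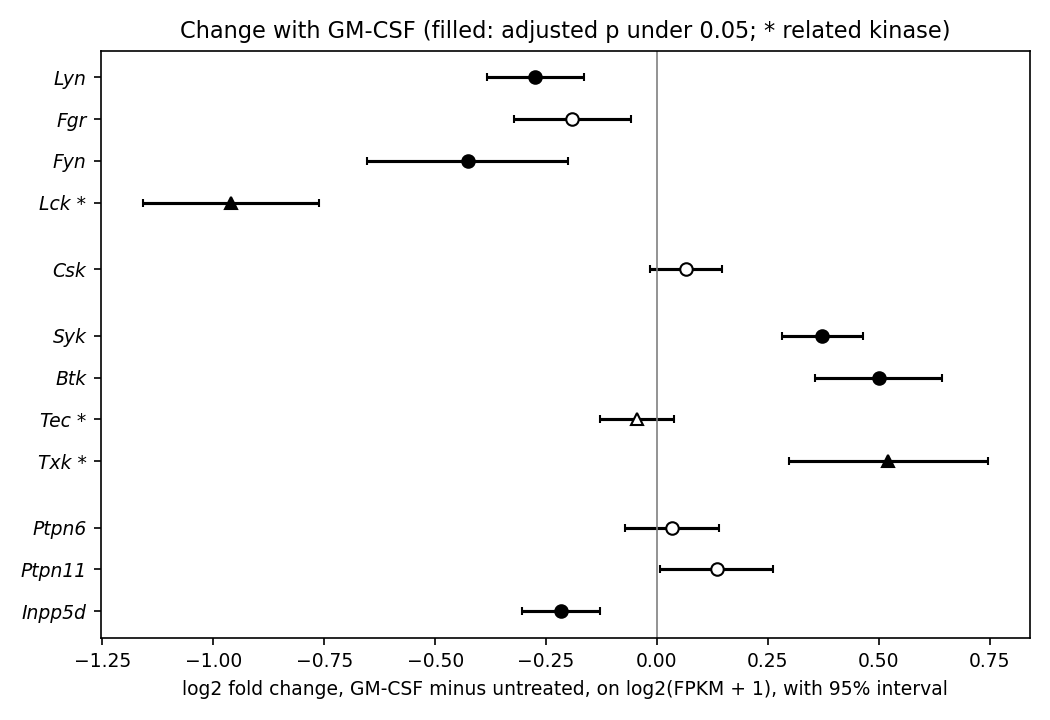
Log2 fold change of GM-CSF against untreated cultures on log2(FPKM + 1), with 95% intervals from limma. Circles are the 9 genes and triangles with an asterisk are related kinases, and filled symbols have an adjusted p under 0.05. The 4 Src-family genes shown lie left of 0 and Syk and Btk right of it.

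Among Src-family kinases, Lyn has a particular place in myeloid cells, since it phosphorylates inhibitory as well as activating receptors. Lyn (chromosome 4, 3678115 to 3813122, GRCm38) measured 118, 114 and 124 FPKM in untreated replicates 1 to 3 and 96.5, 96.1 and 101 FPKM in GM-CSF replicates 1 to 3. Every GM-CSF library was below every untreated one. The log2 fold change was -0.27 (SE 0.05, 95% interval -0.38 to -0.17, limma adjusted p = 0.00697), a fall of 17.5% in mean FPKM. This call ended when libraries were rescaled to the same FPKM sum (log2 fold change -0.23, limma adjusted p = 0.0584).

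Fgr, a kinase found mainly in granulocytes, monocytes and macrophages, lies on chromosome 4 (132974095 to 133001910) and measured 138, 142 and 151 FPKM without and 119, 132 and 126 FPKM with GM-CSF. Its groups did not overlap either, but its log2 fold change of -0.19 (SE 0.06, 95% interval -0.32 to -0.06) missed the threshold narrowly (limma adjusted p = 0.0526). Fyn, a broadly expressed family member with a known role in T cells, is on chromosome 10 (39368855 to 39565381). It measured 12.3, 12.1 and 11.4 FPKM in untreated and 9.61, 9.0 and 7.41 FPKM in GM-CSF cultures. All 3 GM-CSF values were lower, with GM-CSF replicate 3 the lowest. The log2 fold change was -0.43 (SE 0.09, 95% interval -0.65 to -0.20, limma adjusted p = 0.0207), and without untreated replicate 1 or without untreated replicate 2 it was -0.41 or -0.42 and no longer passed (limma adjusted p = 0.0742 and 0.0760). With the highest transcript in place of the sum over transcripts it was 0.10 (SE 0.30, limma adjusted p = 0.855), which shows no direction. That transcript, NM_008054, took between 34.4% and 90.1% of Fyn FPKM across the 6 libraries.

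Lck, a Src-family member known from T cells, fell from 3.06 ± 0.106 FPKM to 1.09 ± 0.104 (log2 fold change -0.96). Src, Yes1, Blk and Frk averaged below 1 FPKM and were not tested. Of the 4 Src-family genes described here that could be tested, Lyn, Fyn and Lck fell and Fgr did not pass, so 3 of 4 were lower, where 14.2% of all genes tested were. Their median log2 fold change was -0.35, beside -0.05 for all genes. Without untreated replicate 1, without untreated replicate 2 or with the same FPKM sum 2 of the 4 fell. With the highest transcript in place of the gene sum 0 of the 4 were called lower by limma, and 1 was lower at an unadjusted p under 0.05.

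Markers of T cells moved in the same direction as Fyn and Lck. Of 6 T cell markers tested, Lck among them, 4 fell and 2 did not pass, where 14.2% of all genes tested fell. Cd3e (log2 fold change -0.75) and Cd3g (-0.65) were the largest falls after Lck. The summed level of all 11 markers was between 32.4 and 33.8 FPKM in untreated and between 17.7 and 20.9 FPKM in GM-CSF libraries, while Cd4, Cd8a, Cd5, Zap70 and Thy1 averaged below 1 FPKM. The part of T cells in the falls of Fyn and Lck was not tested.

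Lyn and Fyn are each listed with transcripts that differ in coding sequence. The Lyn transcripts NM_001111096 and NM_010747 encode 512 and 491 residues and are known as the A and B forms. The longer form took 63.4%, 46.5% and 57.1% of Lyn FPKM in untreated and 53.3%, 54.4% and 70.2% in GM-CSF libraries. Both forms were present in every library, and the groups overlapped, with a difference of 3.60 percentage points (p = 0.7, two-sided exact permutation test).

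For Fyn the choice is between mutually exclusive exons that encode the end of the SH2 domain region and the start of the kinase domain. One exon gives the form named for T cells (NM_008054 and NM_001122892, 156 bases of difference, chromosome 10, 39529919 to 39530074), the other the form known from brain (NM_001122893, 165 bases, 39529437 to 39529601). The exclusive bases are in capitals, with 12 shared bases in lower case on each side, as read from the GENCODE M21 transcripts:
Fyn, T cell form: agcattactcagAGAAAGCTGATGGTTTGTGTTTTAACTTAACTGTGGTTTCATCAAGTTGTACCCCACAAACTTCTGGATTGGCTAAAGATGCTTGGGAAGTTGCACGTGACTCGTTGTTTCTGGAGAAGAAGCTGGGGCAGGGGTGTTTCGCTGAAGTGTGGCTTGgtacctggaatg
Fyn, brain form: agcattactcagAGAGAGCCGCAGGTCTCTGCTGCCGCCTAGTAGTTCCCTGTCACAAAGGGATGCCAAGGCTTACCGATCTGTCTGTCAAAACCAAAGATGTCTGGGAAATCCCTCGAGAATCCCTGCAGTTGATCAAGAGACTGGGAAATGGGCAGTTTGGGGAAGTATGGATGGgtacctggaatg
The brain form took between 5.39% and 24.6% of Fyn FPKM across the 6 libraries, so the exon of the T cell form prevailed in all of them. How the T cell form was divided between its own transcripts varied widely, with NM_001122892 between 0.00481% and 60.2%, and is not read further.

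Csk, the kinase that phosphorylates the inhibitory tail tyrosine of the family, did not pass (chromosome 9, 57626646 to 57653631). It measured 219, 215 and 224 FPKM without and 227, 231 and 230 FPKM with GM-CSF. The groups were just separated, and the log2 fold change was 0.07 (SE 0.03, 95% interval -0.02 to 0.15, limma adjusted p = 0.23). With median-of-ratios scaling, a factor per library from the median gene, it became 0.13 and passed (limma adjusted p = 0.037).

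Of 10 tested regulators of Src-family kinases, Csk among them, 1 rose, 2 fell and 7 did not pass. Their median log2 fold change was 0.03. Over all genes tested 7.68% rose and 14.2% fell. Ptprc, which encodes CD45, the phosphatase that removes the inhibitory tail phosphate, fell from 296 ± 10.9 FPKM to 241 ± 10.6 (SD, n = 3 each), a log2 fold change of -0.29 with an SE of 0.05 (limma adjusted p = 0.00683). Ptpn22, a phosphatase that partners Csk and acts on the activation loop, fell from 33.8 FPKM to 24.5 (log2 fold change -0.45). Ptpn12, which encodes PTP-PEST, a phosphatase of adhesion adaptors, rose from 49.8 FPKM to 77.7 (log2 fold change 0.63). Pag1, the membrane anchor of Csk, was low at 1.01 and 1.19 FPKM.

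Syk and Btk were the members that rose. Syk, the tyrosine kinase that binds phosphorylated ITAMs (chromosome 13, 52583173 to 52648792), measured 162, 157 and 166 FPKM in untreated and 208, 207 and 214 FPKM in GM-CSF libraries. Each group was tight and the gap between them wide. The log2 fold change was 0.37 (SE 0.04, 95% interval 0.28 to 0.47, limma adjusted p = 0.00105), a rise of 29.7% in mean FPKM. Btk, a Tec-family kinase recruited by the lipid PIP3 and best known from B cells (X chromosome, 134542336 to 134583570), measured 104, 98.4 and 102 FPKM without and 135, 141 and 156 FPKM with GM-CSF. GM-CSF replicate 3 was the highest and no library overlapped. Its log2 fold change of 0.50 (SE 0.06, 95% interval 0.36 to 0.64, limma adjusted p = 0.00198) was the largest in size of the 9 genes, a rise of 42.0% in mean FPKM.

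Tec and Txk belong to the same family as Btk. Tec measured 53.3 ± 0.488 and 51.6 ± 0.569 FPKM (SD, n = 3 each), and its log2 fold change of -0.05 did not pass (limma adjusted p = 0.416). Txk rose from 2.11 to 3.48 FPKM (log2 fold change 0.52, limma adjusted p = 0.00927). Zap70 and Bmx averaged below 1 FPKM and were not tested. Of the 4 Syk and Tec-family genes described here that could be tested, 3 rose, where 7.68% of all genes tested did, and Tec did not pass. The median log2 fold change of the 4 was 0.44. With the highest transcript 1 of the 4, Btk, was called higher by limma, and 3 were higher at an unadjusted p under 0.05. Markers of B and plasma cells, where Btk and Lyn are also expressed, fell while Btk rose. All 7 that were tested fell, where 14.2% of all genes tested did. Among the 7 were Cd79b (log2 fold change -0.88), Igj (-0.88) and Mzb1 (-0.81). This count was 4 without untreated replicate 3, without GM-CSF replicate 2 or without GM-CSF replicate 3, and also with the replicate block, quantile normalization or a mean of 5 FPKM or more. Their summed level, with 4 untested markers, was between 50.8 and 57.0 FPKM in untreated and between 29.1 and 30.7 FPKM in GM-CSF libraries, and Pax5, Ms4a1, Blk and Sdc1 averaged below 1 FPKM. Their part in the fall of Lyn was not tested.

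Syk is listed with transcripts that begin at different places and encode the same 629 amino acids. RefSeq puts the starts 13445 bases apart, at 52583437 near the start of NM_001198977 and at 52596882 for NM_011518. The 250 bases before each RefSeq start differ in composition. The upstream window, which GENCODE M21 places inside the first exon of NM_001198977, is 71.6% G and C with 27 CpG dinucleotides. The downstream window is 47.6% G and C with 2, where the median of 32851 RefSeq windows of this length is 52.4% G and C with 6 CpG dinucleotides. The downstream window (chr13:52596632-52596881, plus strand, RefSeq, GRCm38.p6) is shown because the transcript that starts after it rose with GM-CSF, with CpG dinucleotides in capitals:
Syk downstream start: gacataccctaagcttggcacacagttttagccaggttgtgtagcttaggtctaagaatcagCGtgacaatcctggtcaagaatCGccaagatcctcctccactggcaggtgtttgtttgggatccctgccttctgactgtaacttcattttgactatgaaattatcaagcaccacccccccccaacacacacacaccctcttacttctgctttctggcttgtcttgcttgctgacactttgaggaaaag
The transcript from the upstream start was the major one, at 133, 121 and 131 FPKM without and 150, 145 and 142 FPKM with GM-CSF. The transcript from the downstream start measured 29.5, 35.2 and 34.7 FPKM without and 57.8, 61.9 and 72.0 FPKM with GM-CSF. For this second transcript every GM-CSF library was well above every untreated one. In a limma fit over 12062 transcripts, of which 12.7% were called in either direction, it rose (log2 fold change 0.93, SE 0.11, adjusted p = 0.00545), and the upstream transcript did not pass (log2 fold change 0.18, SE 0.05, adjusted p = 0.0654).

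The share of the downstream transcript in Syk FPKM was 18.1%, 22.5% and 20.9% in untreated and 27.9%, 29.9% and 33.6% in GM-CSF libraries, 9.94 percentage points higher on average. The groups were separated (p = 0.1 in a two-sided exact permutation test, as low as 3 against 3 can go, and 1 after Benjamini-Hochberg adjustment over the 10 transcripts compared). In a limma fit of the log ratio of each transcript to the rest of its gene, Syk gave 0.75 (SE 0.23, adjusted p = 0.743). That fit called 0 of 3613 transcripts (0%), with 227 at an unadjusted p under 0.05. A difference in response between the Syk transcripts is therefore not established here. Syk NM_011518 was the only one of the 10 compared whose groups did not overlap. Separated groups have an exact permutation p of 0.1, so 1 among 10 does not set Syk apart. The share of all transcripts with such groups was not computed.

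**Figure D3:**
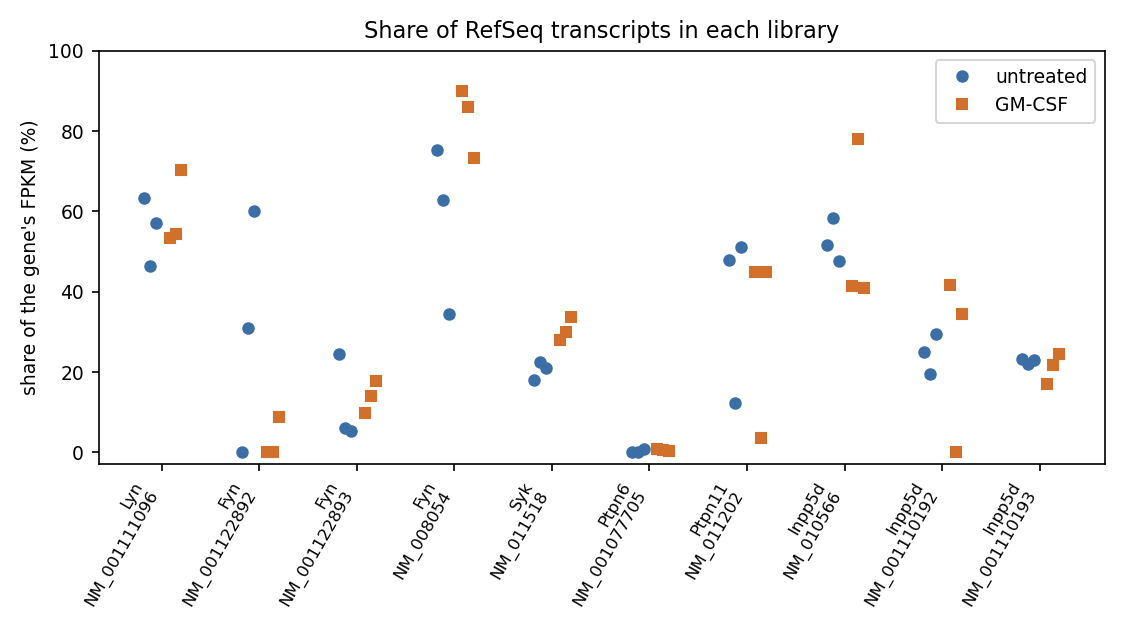
Share of a gene's FPKM (percent) taken by the 10 RefSeq transcripts compared, in each untreated (circles) and GM-CSF (squares) library. Syk NM_011518 is the 1 of the 10 with separated groups (p = 0.1, two-sided exact permutation test), between 18.1% and 22.5% against 27.9% and 33.6%. Several Fyn, Ptpn11 and Inpp5d transcripts range widely within a group.

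Of the phosphatases, Inpp5d fell and Ptpn6 and Ptpn11 did not pass. Inpp5d encodes SHIP-1, the blood cell phosphatase that removes the 5-phosphate from PIP3, the lipid that recruits Btk (chromosome 1, 87620312 to 87720507). It measured 125, 120 and 125 FPKM in untreated and 105, 105 and 108 FPKM in GM-CSF libraries. The groups were clearly apart. The log2 fold change was -0.22 (SE 0.04, 95% interval -0.31 to -0.13, limma adjusted p = 0.00742), a fall of 14.1% in mean FPKM, and the call ended with libraries rescaled to the same FPKM sum (log2 fold change -0.17, limma adjusted p = 0.0914).

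Ptpn6 encodes SHP-1, the phosphatase of inhibitory receptors in blood cells (chromosome 6, 124720707 to 124738714). Its FPKM was 493, 485 and 516 without and 498, 501 and 530 with GM-CSF, and the groups overlapped. The log2 fold change was 0.03 with a 95% interval from -0.07 to 0.14 (limma adjusted p = 0.658). At a level above 98.8% of the genes tested, it was the most abundant of the 9 genes in every library. Ptpn11, which encodes SHP-2, is on chromosome 5 (121130533 to 121191397) and measured 16.8, 17.3 and 17.5 FPKM without and 19.6, 17.9 and 19.6 FPKM with GM-CSF. All GM-CSF values were higher, by little, and the log2 fold change of 0.14 (SE 0.05, 95% interval 0.01 to 0.26) did not pass (limma adjusted p = 0.127).

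The transcripts of Ptpn6 begin 5560 bases apart and differ in their first coding bases. The near start is known as the one used in blood cells and the far start as the one used in epithelial cells. The coding bases particular to each transcript are in capitals, preceded by 12 bases of its own leader and followed by 12 shared coding bases (minus strand of chromosome 6, with the capitals at 124732946 to 124732953 and at 124738499 to 124738512):
Ptpn6 near start, NM_013545: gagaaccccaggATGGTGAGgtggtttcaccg
Ptpn6 far start, NM_001077705: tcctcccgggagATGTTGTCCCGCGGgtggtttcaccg
The near-start transcript carried between 99.2% and 100% of Ptpn6 FPKM in the 6 libraries, and the far-start transcript at most 0.838%. Epithelial markers were present at low levels: their 13 genes summed to between 90.5 and 98.9 FPKM in untreated and between 58.4 and 72.4 FPKM in GM-CSF libraries. Of 9 tested markers 5 were lower and 4 did not pass, where 14.2% of all genes tested were lower. Without untreated replicate 1, with no filter or with a mean of 5 FPKM or more, 3 were lower. Krt19 (log2 fold change -0.81), Cldn7 (-0.74) and Lyz1 (-0.69) were the largest of these falls.

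Transcripts of Ptpn11 and Inpp5d that differ by few bases were divided unevenly between libraries. The Ptpn11 transcript NM_011202 has 12 coding bases more than NM_001109992 (chromosome 5, 121144685 to 121144696, minus strand; capitals, with 12 shared bases on each side):
Ptpn11 long form, NM_011202: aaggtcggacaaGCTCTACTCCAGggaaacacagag
It took 48.0%, 12.3% and 51.2% of Ptpn11 FPKM in untreated and 44.8%, 3.49% and 45.0% in GM-CSF libraries, low in replicate 2 of both groups. The Inpp5d transcripts NM_010566 and NM_001110192 differ by 3 coding bases, and the latter took 41.6%, 0.0137% and 34.5% in the GM-CSF libraries. For both genes only the sum over transcripts is read.

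Other phosphatases of the same signals were measured beside them. Of 8 tested, Ptpn6, Ptpn11 and Inpp5d included, 1 rose, 2 fell and 5 did not pass, with a median log2 fold change of 0.08. Over all genes tested 7.68% rose and 14.2% fell. Ptpn7, a phosphatase of MAP kinases in blood cells, fell from 35.3 FPKM to 25.3 (log2 fold change -0.46). Ptpn2, a phosphatase of JAK kinases, rose from 30.0 FPKM to 43.2 (log2 fold change 0.51). The number of these phosphatase genes that rose was 3 with median-of-ratios scaling. It was 2 without untreated replicate 3, with quantile normalization, with the same FPKM sum or with a mean of 5 FPKM or more. With the same FPKM sum or the highest transcript 1 fell. The SHIP-1 relative Inppl1 measured 10.7 and 12.3 FPKM (log2 fold change 0.19, limma adjusted p = 0.0717).

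The receptors and adaptors that these enzymes work on changed gene by gene. Of 17 tested genes of receptors with inhibitory motifs, 5 rose, 4 fell and 8 did not pass, with a median log2 fold change of 0.00. Over all genes tested 7.68% rose and 14.2% fell. Siglecg, a sialic acid receptor, rose from 4.54 FPKM to 19.2 (log2 fold change 1.87), Lilrb4 from 813 to 1380 FPKM (0.76) and Pilra from 112 to 188 FPKM (0.74). Lilrb4 belongs to a family of close copies. Its level is uncertain to the extent that reads were shared among them. Siglec-F, whose gene is listed as Siglec5, and Pir-B, listed as Lilrb3, are inhibitory receptors of eosinophils, and both were level, with log2 fold changes of 0.00 and -0.01. The level of Lilrb3 carries the same uncertainty as that of Lilrb4.

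Of 14 tested ITAM adaptor and activating receptor genes, 2 rose, 4 fell and 8 did not pass, beside 7.68% and 14.2% of all genes. The median log2 fold change of the 14 was -0.08. With median-of-ratios scaling 4 of the 14 rose and 3 fell. Tarm1, an activating receptor, went from 0.887 FPKM to 29.6 (log2 fold change 4.04). Cd79b (-0.88), an ITAM chain of B cells, and Fcgr4 (-0.76), an activating Fc receptor, fell. The myeloid ITAM adaptors Tyrobp and Fcer1g were very abundant, and their log2 fold changes of -0.10 and -0.06 did not pass.

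Among 31 tested adaptors and substrates below Src-family kinases and Syk, 3 rose, 7 fell and 21 did not pass. Over all genes tested 7.68% rose and 14.2% fell. The median log2 fold change of the 31 was -0.07. Lcp2, which encodes SLP-76, an adaptor that Syk phosphorylates, rose from 72.7 ± 1.57 FPKM to 125 ± 3.57 (SD, n = 3 each), a log2 fold change of 0.77 with an SE of 0.04 (limma adjusted p = 5.42e-05). Sh3bp2, an adaptor that binds Syk, rose from 1.93 FPKM to 4.37 (log2 fold change 0.88), and Vav2, a guanine nucleotide exchange factor, fell from 10.9 to 5.92 FPKM (-0.77). Of 13 tested PI 3-kinase and PIP3 effector genes, 2 rose, 1 fell and 10 did not pass, where 21.9% of all genes tested were called. Pik3cd, the catalytic subunit enriched in leukocytes, rose from 69.8 FPKM to 92.2 (log2 fold change 0.39) and the regulatory subunit gene Pik3r1 from 10.7 to 15.8 FPKM (0.52), while Pik3cb fell from 23.0 to 19.1 FPKM (-0.26), a call that ended with the same FPKM sum.

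**Figure D4:**
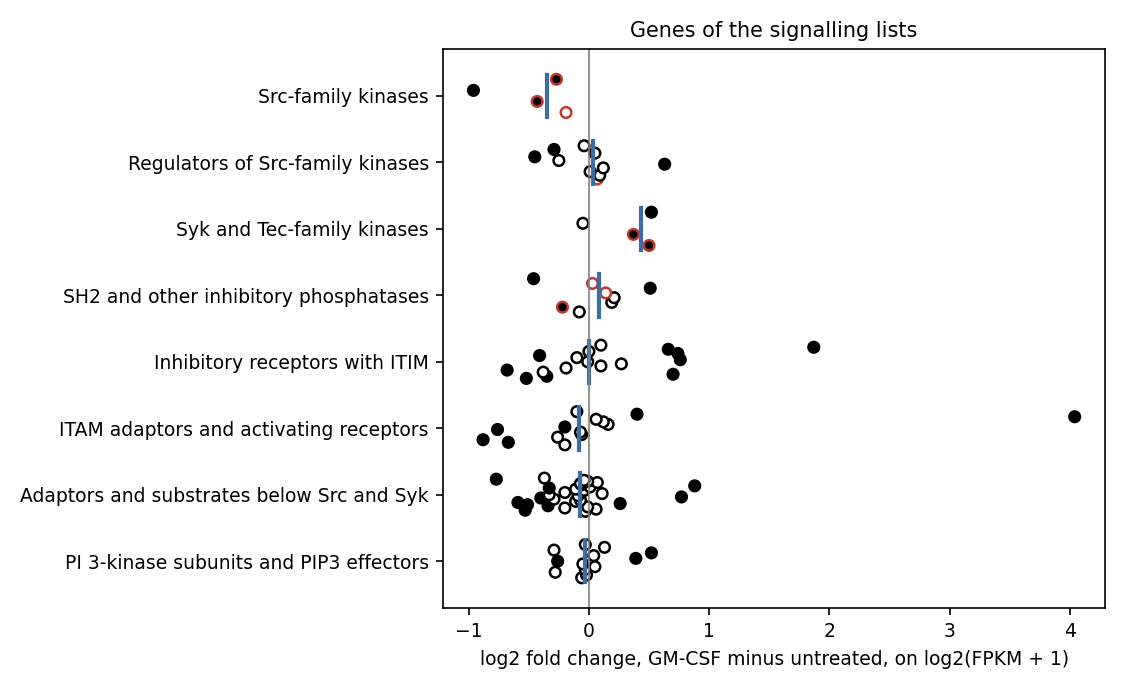
Log2 fold change on log2(FPKM + 1) of every tested gene in the 8 signalling lists, filled where the adjusted p is under 0.05, outlined in red for the 9 genes, with a blue bar at each list's median. The Src-family median is at -0.35 and that of Syk and Tec-family kinases at 0.44, while the other lists have medians between -0.08 and 0.08.

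Myeloid cells other than eosinophils also express Lyn, Fgr and Syk. For the marker counts that follow, 7.68% of all genes tested rose and 14.2% fell. Of 5 tested macrophage and dendritic cell markers, 3 fell, Csf1r (log2 fold change -0.86), Apoe (-0.63) and Lyz2 (-0.42), and 2, Cd68 and Emr1, did not pass. The summed level of the 13 markers was between 481 and 539 FPKM in untreated and between 536 and 602 FPKM in GM-CSF libraries, of which Emr1, itself a marker of mouse eosinophils, held the most. C1qa, C1qb, C1qc, Mrc1 and Cx3cr1 averaged below 1 FPKM. Of 5 tested neutrophil markers, Cxcr2 rose (2.15), S100a8 (-0.77) and Retnlg (-0.43) fell and 2 did not pass. The 9 neutrophil markers found summed to between 1370 and 1490 FPKM in untreated and between 1140 and 1170 FPKM in GM-CSF libraries, most of it Retnlg, with Camp and Elane at 0 in every library and Mpo and Ltf below 1 FPKM on average.

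Mast cell markers summed to between 15.0 and 26.6 FPKM without and between 12.8 and 15.5 FPKM with GM-CSF, with Kit (-0.75) and Gata2 (-0.33) down, 2 others not passing, and Tpsb2 and Cma1 at 0. The count of mast cell markers that fell was 1 when untreated replicate 1 or 2, or GM-CSF replicate 1 or 2, was left out. Of 3 tested innate lymphoid and NK cell markers Il7r (-0.71) and Gzma (-0.43) fell, and the list summed to between 9.11 and 10.9 FPKM without and between 5.56 and 7.71 FPKM with GM-CSF. The number of these markers that fell was 1 when any library other than GM-CSF replicate 2 was left out. For stromal and endothelial cells Pdgfra rose (1.04) and Pecam1 fell (-0.41). That list summed to between 152 and 169 FPKM without and between 118 and 133 FPKM with GM-CSF. Most of it was Pecam1, at a mean of 155 FPKM without and 117 FPKM with GM-CSF. Pecam1 is also counted above among the genes of receptors with inhibitory motifs. Col1a1, Cdh5 and Vwf averaged below 1 FPKM. Of 10 tested eosinophil markers 1, Gata1 (0.35), rose, 4 fell and 5 did not pass. Alox15 (-1.54), Il5ra (-1.10) and Cebpe (-0.60) were the largest falls. The 14 eosinophil markers summed to between 1960 and 2140 FPKM without and between 1570 and 1750 FPKM with GM-CSF. The part of these cell types in the changes of the 9 genes was not tested.

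The 250 bases before each RefSeq start were available for 8 of the 9 genes, in 10 windows. The STAT motif TTCNNNGAA, read on both strands, was in 0 of the 10 windows, and 7.02% of all 32851 windows hold it. The PU.1 core GAGGAAG was in 2, those of Inpp5d and of the Csk start nearest its measured transcript, against 10.6% of all windows. The Ptpn6 window lies at the far start. A match is a description of letters, and its absence says nothing of the factor.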

How the data were processed

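The data are 6 RNA libraries of cultured small intestinal eosinophils, 3 untreated and 3 with GM-CSF. Build mm10 and the tools TopHat, TopHat2, Cufflinks and bcl2fastq (1.8.4) are listed, without roles, per the submitters' processing notes. Per the file headers, each library has 1 table of RefSeq transcripts with FPKM, coverage and length. The authors deposited FPKM, not counts, so no count test was run, and the deposited coverage signal served only to give depth (coverage divided by FPKM gives mapped gigabases). Use of strand and the division of reads among similar transcripts are not given in the sources used here. This bears on Lyn and Ptpn6, whose exons each overlap a gene on the opposite strand in GENCODE M21 (GRCm38). The largest overlap with a single exon of that gene covers 7.16% of Lyn and 8.01% of Ptpn6 exon bases.

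Transcript FPKM were summed per symbol and genes averaging 1 FPKM or more were tested with limma 3.58.1 in R 4.3.3 on log2(FPKM + 1) (empirical Bayes with a trend, two-sided, Benjamini-Hochberg). The pseudocount of 1 understates changes of low genes. Of all genes tested, 776 rose and 1436 fell, and with median-of-ratios scaling 1008 rose and 1040 fell. Transcript shares were compared with exact permutation tests. The 2 fits over all transcripts were added after seeing the data. No library repeated another.

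The 9 genes, the lists and the tests were chosen with earlier results of these data known. Named are the 9 genes, for each list the (up to 3) genes past the threshold that changed most, the related kinases, and for each of the 9 its nearest gene in pattern. Other names (Pag1, Inppl1, Siglec5, Lilrb3, Tyrobp, Fcer1g, Ccr3, Emr1, Cd68, Epx, Prg2, Gata1) and markers below 1 FPKM were chosen after their values were seen. Ly6g was not matched. Some genes of the lists and 1 sequence are not reported here, and the list counts leave those genes out. Alternatives were other pseudocounts, filters, scalings, the highest transcript in place of the sum, no trend, a replicate block and leaving out each library.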

Additional observations from a re-analysis of the deposited data

How the results depend on the processing

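Btk passed under all 16 alternatives (adjusted p between 0.00107 and 0.0126). Syk passed under 15, Lyn and Inpp5d under 14 and Fyn under 13. With the highest transcript in place of the gene sum Syk missed narrowly (0.18, limma adjusted p = 0.0525). Lyn (-0.18, SE 0.18) and Inpp5d (-0.25, SE 0.25) did not pass. Fyn gave 0.10 (SE 0.30, limma adjusted p = 0.855), which shows no direction. For gene sums the SEs of Lyn, Inpp5d and Fyn were 0.05, 0.04 and 0.09. In this setting 4 of the 9 genes, not 8, had groups that did not overlap. The share of all genes with such groups was 39.2% for gene sums and was not computed for the highest transcript. Rescaling to the same FPKM sum ended the calls of Lyn (-0.23) and Inpp5d (-0.17). Fgr passed with a mean of at least 5 FPKM (-0.19, adjusted p = 0.0491) and with quantile normalization (-0.19, adjusted p = 0.0414), and Csk with median-of-ratios scaling (0.13). The causes were not tested. Leaving out 1 library gave log2 fold changes for Fyn between -0.50 and -0.33, and 4 of 6 such fits passed. For Lyn, Syk, Btk and Inpp5d all 6 passed. The Syk share difference ranged from 8.36 to 11.2 percentage points without 1 library. Ptpn6 and Ptpn11 passed under none of the 16 (adjusted p from 0.164 and from 0.0538). The count of all genes called stayed within 1.5 times of 2212. Over all genes tested, deviations of same-numbered cultures from their group means were nearly uncorrelated (-0.0323, 0.0541 and -0.0173). With 3 cultures per group this cannot decide whether the numbers pair them, and the labels do not say. With the replicate block 723 genes rose and 1273 fell, and no call of the 9 genes changed. Of 544 counts over single lists, 498 stayed within 1.5 times. Fyn had the least aligned sequence of the 9 genes.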

Other observations

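For each of the 9 genes, the gene with the most similar pattern was taken by Pearson's r of log2(FPKM + 1) over the 6 libraries, among 6546 genes averaging 5 FPKM or more. These are descriptions, since the 6 points share the treatment contrast. Syk lay closest to Pstpip2, an adaptor gene (r = 0.9987), which went from 131 to 216 FPKM. Btk lay closest to Fez2 (0.9984), Lyn to Cnot8 (0.9980), Inpp5d to Wdr45 (0.9985) and Fyn to Usp2 (0.9995). For these 5 genes between 111 and 405 others had an r above 0.95, so the nearest gene is 1 of many. Fgr was nearest to Gpi1 (0.9962) and Csk to Wdfy4 (0.9908). Ptpn6 and Ptpn11 had few close neighbours, 10 and 7 genes above 0.95, with Crkl (0.9834) and Usp33 (0.9699) in front.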
